A study of Nematostella vectensis with 47 samples.

Results

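The regions described here are the CpG sites of the starlet sea anemone Nematostella vectensis at which nanopore reads of untreated embryos were often called as 5-hydroxymethylcytosine (5hmC). A CpG was a member if it lay in the nuclear genome, had at least 20 valid calls in the library of gastrulae from an untreated cross, and had 5hmC calls at 10% or more of those valid calls. A valid call is a read at which the modification caller assigned unmodified cytosine, 5-methylcytosine (5mC) or 5hmC with enough confidence. The rule kept 8667 CpGs of the 6605184 with enough calls, or 0.131%. Since it used the 5hmC calls of the untreated library, values from that library are a description, and the libraries it did not use carry the results.

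The study followed DNA methylation after a pulse of the DNMT1 inhibitor GSK-3484862 in early embryos and in the next generation. Each of 4 Oxford Nanopore libraries came from animals of the Massachussets genotype. The baseline library held pooled 25 hpf gastrulae (hpf, hours post-fertilization) of a cross between untreated parents. The sperm library came from a male treated as an embryo with GSK (5 µM by the study's methods). The F1 gastrula library held pooled 25 hpf embryos with a GSK-treated father and an untreated mother, and the F1 juvenile library was a single whole animal from such a cross, with the sperm donor as its father. The F1 animals were not treated themselves. These 3 libraries are therefore related through GSK-treated fathers, whereas the baseline embryos had an untreated father. Whether the crosses shared a mother is not given. Each group was 1 library, so no test between conditions was possible, and every interval given below covers counting error only.

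5hmC is made from 5mC by TET dioxygenases and can be an intermediate of demethylation or a mark that persists. In vertebrates it is most abundant in neurons and pluripotent cells. Nematostella methylates mainly the bodies of transcribed genes, so any 5hmC derived from 5mC would be looked for there. A nanopore 5hmC call is a model's reading of the current as DNA passes the pore, and reads that cannot be assigned are counted as failed calls.

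Over all nuclear CpGs the 5hmC share was low in every library, between 0.124% of valid calls in the F1 juvenile and 0.258% in untreated cross gastrulae, with mean depths of 33.5 to 61.3 valid calls per CpG. Mitochondrial CpGs, which carried almost no 5mC calls (0.0403% to 0.168%), gave 5hmC shares of 0.049% to 0.137%. Of the 361 mitochondrial CpGs, 0 reached 10% in any library, and the highest stood at 1.67%. Their mean depths were 216 to 2945 valid calls per CpG. With so few CpGs at such depths, this count cannot show how often unmethylated nuclear CpGs reach 10% through counting error. The untreated library had 17.8% failed calls against 9.07% to 9.23% in the other libraries. In that library 75.1% of members had over 20% failed calls, against 29.7% of the matched CpGs described below. With 5hmC calls taken over valid and failed calls together, 3000 members instead of 8248 could be read in F1 gastrulae.

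Most members rested on few calls. The median member had 4 5hmC calls among 29 valid calls, with a median 5hmC share of 12.5% and a highest share of 55.6%. Of the members, 3412 had 2 to 3 5hmC calls, 3915 had 4 to 5, 1148 had 6 to 9 and 192 had 10 or more. Members were heavily methylated at baseline, with a median 5mC share (mCG) of 80%, whereas the median over all CpGs with enough calls was 0%. In the class of 80% to 90% mCG, 3.16% of CpGs were members, compared with 0.0146% of CpGs under 5% mCG. The rule itself keeps members at or below 90% mCG.

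The same CpGs carried 5hmC calls in the other libraries far more often than other CpGs did. In F1 gastrulae 1216 of 8248 members with at least 20 valid calls were again at 10% or more, or 14.7% (95% Wilson interval 13.99% to 15.52%), against 0.0743% of all CpGs tested. The F1 juvenile gave 1112 of 8310, or 13.4% (12.7% to 14.1%), against 0.0768% of all CpGs. Sperm gave 818 of 8526, or 9.59% (8.99% to 10.2%), against 0.0502% of all CpGs. Sperm thus had the lowest share, and its interval did not overlap those of the F1 libraries. The intervals of F1 gastrula and F1 juvenile overlapped.

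Because members were rich in 5mC and shallower than other CpGs, they were set beside non-members of the same mCG (steps of 5 percentage points) and the same depth in both libraries (steps of 10 valid calls), with the strata weighted as in the members. No member lay in a stratum without a non-member. Matched CpGs reached 10% in 0.691% of cases in F1 gastrulae, 0.724% in the F1 juvenile and 0.444% in sperm. The member share was 21.3, 18.5 and 21.6 times the matched share, respectively. Non-members are by definition under 10% at baseline, so this ratio contrasts CpGs above and below the rule's threshold at equal methylation and depth.

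**Figure D1:**
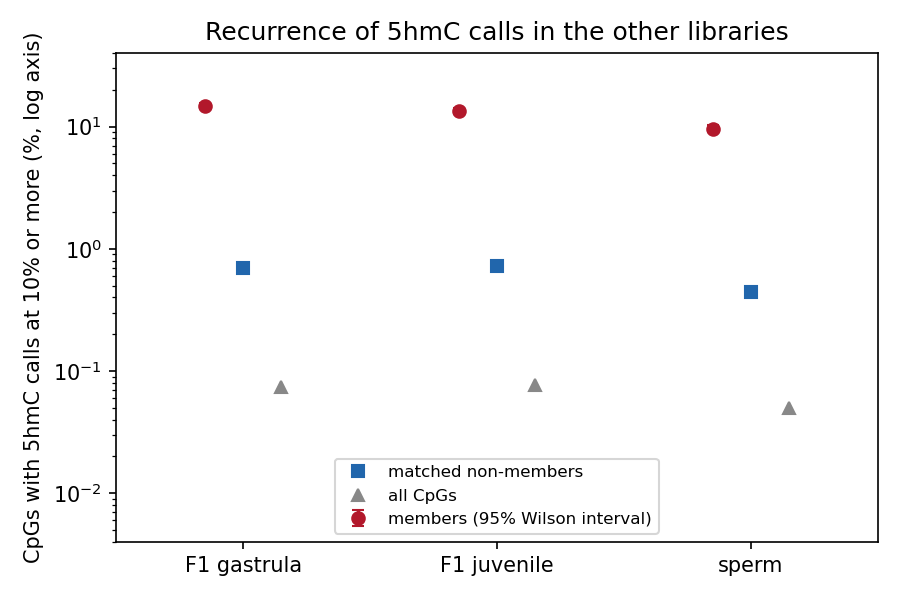
Share of CpGs with 5hmC calls at 10% or more of valid calls (log axis) in each library that the choice of members did not use. Members (circles, 95% Wilson interval) sit at 14.7%, 13.4% and 9.59%, matched non-members (squares) at 0.691%, 0.724% and 0.444%, and all CpGs (triangles) below 0.1%.

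The pooled values showed the same order with smaller contrasts. Members together had 5hmC at 4.33% of valid calls in F1 gastrulae (4.26% to 4.40%), 3.96% in the F1 juvenile (3.90% to 4.02%) and 3.09% in sperm (3.04% to 3.14%). Matched CpGs had 0.698%, 0.679% and 0.618%. Their 5mC also differed, since members had 48.5%, 47.1% and 30.2% mCG in F1 gastrulae, F1 juvenile and sperm, against 42.3%, 41.2% and 22.3% in CpGs matched on baseline mCG and depth.

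Most members stayed below 10% in each of the other libraries. Taken alone, each of these libraries also had some 5hmC call again at most members. Of the 8017 members with at least 20 valid calls in all 4 libraries, 6115 were below 10% in every other library. A further 1090 reached it in 1 library, 509 in 2 and 303 in all 3. The last group was 3.78% of members (3.38% to 4.22%), against 0.0084% of all CpGs and 0.0362% of matched CpGs. Members without any 5hmC call made up 35.7% in F1 gastrulae, 37.8% in the F1 juvenile and 42.6% in sperm, compared with 93.9%, 94.1% and 89.4% of all CpGs. All CpGs were mostly unmethylated, and this contrast was not matched on mCG.

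Seen from the other side, 537 CpGs were at 10% or more in F1 gastrulae, F1 juvenile and sperm together. Of these, 303 were members (56.4%). The other 234 had a median baseline share of 4.40%, with 106 of them at 5% or more and 58 without any 5hmC call. Across the 8017 members, the 5hmC shares of F1 gastrula and F1 juvenile had a Spearman rho of 0.51, while sperm had a rho of 0.43 with each of them. These correlations are across sites of the same 3 libraries, which share kinship and base composition, and are given as a description.

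Members that stood higher at baseline recurred more often. In F1 gastrulae the share at 10% or more climbed from 7.91% of members with a baseline of 10% to under 12%, through 12.3% (12% to under 15%), 20.5% (15% to under 20%) and 37.4% (20% to under 30%), to 59.8% of members at 30% or more. In the F1 juvenile the lowest class stood at 6.95% and the highest at 57.5%, and in sperm at 5.21% and 40.2%. The number of calls ordered members likewise. Members with 2 to 3 5hmC calls at baseline recurred in F1 gastrulae at 7.66% and those with 10 or more calls at 52.9%.

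Values changed gradually across the threshold. Members just inside it, at 10% to under 11%, recurred at 6.89% in F1 gastrulae, 5.77% in the F1 juvenile and 4.78% in sperm. CpGs just outside it, at 9% to under 10%, reached 10% at 5.31%, 4.63% and 3.43% in the same libraries.

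**Figure D2:**
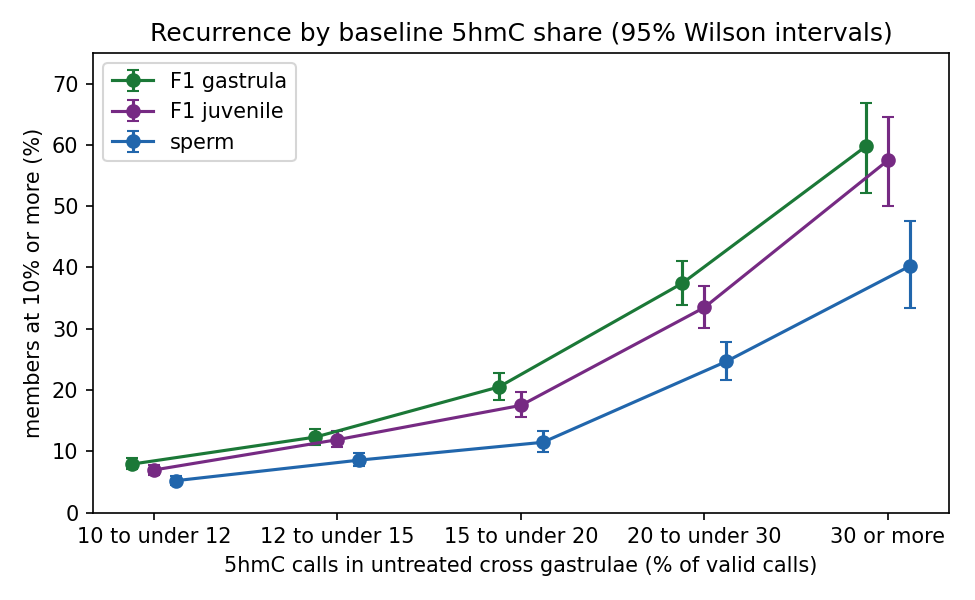
Share of members at 10% or more 5hmC calls in each of the other 3 libraries (vertical axis, %) by their 5hmC share in untreated cross gastrulae (horizontal axis, % of valid calls), with 95% Wilson intervals. All 3 lines climb from 5.21% to 7.91% in the lowest class to 40.2% to 59.8% in the highest, and sperm lies lowest in every class.

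Sperm was also the library in which the most members were nearly unmodified. Of the members, 2402 of the 8526 with enough calls in sperm had 5mC and 5hmC together under 5% in that library, compared with 652 of 8248 in F1 gastrulae and 1135 of 8310 in the F1 juvenile. This total contains the 5hmC calls, so members in that class cannot reach 10% and the order of the shares is fixed in part by it. Where the same total stood at 80% or more, 28.7% of members were at 10% or more 5hmC in sperm (26.5% to 31.0%), 25.3% in F1 gastrulae (23.5% to 27.3%) and 24.4% in the F1 juvenile (22.8% to 26.1%). In this class sperm was thus not the lowest library. It was the lowest in the classes of 5% to 20%, 20% to 50% and 50% to 80%, at 6.27%, 5.52% and 14.6%. F1 gastrulae had 13.6%, 8.17% and 15.8% there, and the F1 juvenile 12.3%, 6.82% and 15.4%. Only in the class of 5% to 20% was the sperm interval (5.18% to 7.58%) apart from both others. Pooled 5hmC in the class of 80% or more was 7.34% in sperm, 6.42% in F1 gastrulae and 6.42% in the F1 juvenile. Matched non-members had 1.90%, 1.38% and 1.34%.

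As a share of modified calls (5hmC over 5mC and 5hmC together), the members had 8.20% in F1 gastrulae, 7.75% in the F1 juvenile and 9.27% in sperm. Matched CpGs had 1.69%, 1.52% and 2.86%. Sperm therefore had the highest 5hmC share per modified call, both in members and in matched CpGs. It was also highest over all CpGs tested, at 1.89%, 1.70% and 4.01% in the same order, so this was not particular to members.

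**Figure D3:**
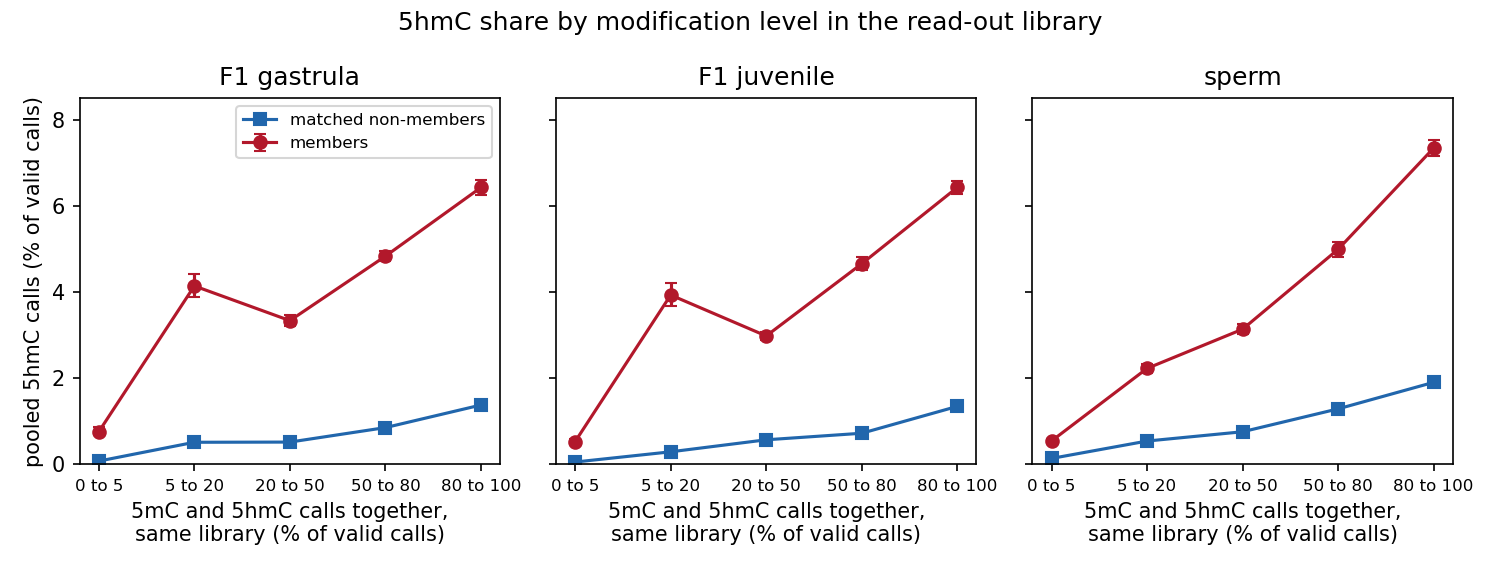
Pooled 5hmC calls (vertical axis, % of valid calls) by the level of 5mC and 5hmC together in the same library (horizontal axis), for members (circles, 95% Wilson intervals) and for non-members matched on baseline mCG and depth (squares). Members lie above matched CpGs in all 5 classes of each library and reach 6.42% to 7.34% in the most modified class.

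Members methylated at 60% or more at baseline could be followed by their state in sperm. Among the 2406 with sperm mCG under 20%, sperm had 5hmC at 0.846% of valid calls and 0.665% of these members reached 10%. In F1 gastrulae, which hold a maternal copy of each CpG as well, the same members had 42.6% mCG and 3.46% 5hmC, and 9.23% of them reached 10%. Among the 1923 with sperm mCG of 60% or more, 21.8% reached 10% in sperm, 22.6% in F1 gastrulae and 19.9% in the F1 juvenile. In F1 gastrulae the 5hmC share of modified calls was 7.51% in the first class and 6.66% in the last.

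A smaller set of 785 members carried 5hmC calls with almost no 5mC, at under 5% mCG at baseline. They recurred at 12.1% in F1 gastrulae (89 of 738 with enough calls), 6.78% in the F1 juvenile (51 of 752) and 13.4% in sperm (103 of 768). Matched CpGs under 5% mCG reached 10% at 0.00926%, 0.00494% and 0.0088%. These members remained without 5mC, at 0.268%, 0.346% and 0.309% mCG, so that 92.9%, 87.3% and 92.0% of their modified calls were 5hmC. They were also hard to call. In the untreated library 89.9% of the 785 had over 20% failed calls, against 36.5% of CpGs matched to them and 75.1% of all members. Of the 710 with enough calls in all 4 libraries, 35 were at 10% or more in every one, and 584 in none of the other 3. In mitochondrial CpGs, where modified calls are rare, 5hmC made up 45.0% to 54.9% of them.

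Reads at members were harder to call. Failed calls took 36.3% of valid and failed calls at members in the untreated library, against 18.1% in matched CpGs. A gap was also present in libraries that the rule did not use, at 30.1% against 11.1% in F1 gastrulae, 29.4% against 10.96% in the F1 juvenile and 25.3% against 11.04% in sperm. In contrast, reads with another base were nearly as frequent in matched CpGs, at 2.68 and 2.47 per 100 valid calls in F1 gastrulae. The part of call confidence in the recurrence was not tested as a cause. When non-members were matched on the failed share of the untreated library too (an alternative chosen after seeing the data), they reached 10% at 1.33%, 1.18% and 0.802%, and members stood at 11.2, 11.4 and 11.96 times these values. Among the CpGs with at most 20% failed calls and at most 10% other-base or deleted reads, 11.05% of 1403 members recurred in F1 gastrulae, 11.1% of 1409 in the F1 juvenile and 5.90% of 1424 in sperm.

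Neighbouring CpGs that were not members, and so were under 10% at baseline where they had enough calls, had 5hmC far below the members and also below matched CpGs (0.698%, 0.679% and 0.618%). Non-member CpGs at 1 to 10 bp from a member had pooled 5hmC at 0.506% in F1 gastrulae, 0.482% in the F1 juvenile and 0.485% in sperm. At 51 to 200 bp the values were 0.4995%, 0.461% and 0.477%. The same neighbours were methylated, with 34.0% and 38.0% mCG in F1 gastrulae at these distances. The matched CpGs were matched to members, not to these neighbours, and had 42.3% mCG in F1 gastrulae. Their 5hmC is thus not a comparison at equal methylation. Members themselves stood at 4.33%, 3.96% and 3.09% in these libraries.

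The distance to the nearest other CpG set members apart from matched CpGs. Members were rare at 3 bp, with 1.59% of them (1.35% to 1.88%) against 4.87% of matched CpGs, and at 4 bp, with 2.62% against 4.43%. They were more frequent at 2 bp (9.80% against 7.16%), at 7 bp (6.58%, 6.07% to 7.12%, against 3.83%) and at 12 bp (4.48%, 4.06% to 4.93%, against 2.70%). Members under 5% mCG were also more frequent at 7 bp, with 10.2% against 5.37%, but not at 2 bp, with 3.95% against 11.3%. In this set 3 bp held 6.88% against 8.19% (interval of members 5.31% to 8.87%) and 4 bp held 8.28% against 7.27%, so the scarcity at these distances was not seen in it. The 303 members found in all 4 libraries had neither excess beyond their intervals, with 4.95% at 2 bp (3.02% to 8.01%, against 7.37% of matched CpGs) and 4.29% at 7 bp (2.52% to 7.20%, against 3.94%). Of them 53.5% had their nearest CpG at 16 bp or more, against 47.2%. Matching non-members on this distance too, again chosen after seeing the data, left their shares at 0.725%, 0.771% and 0.447%.

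**Figure D4:**
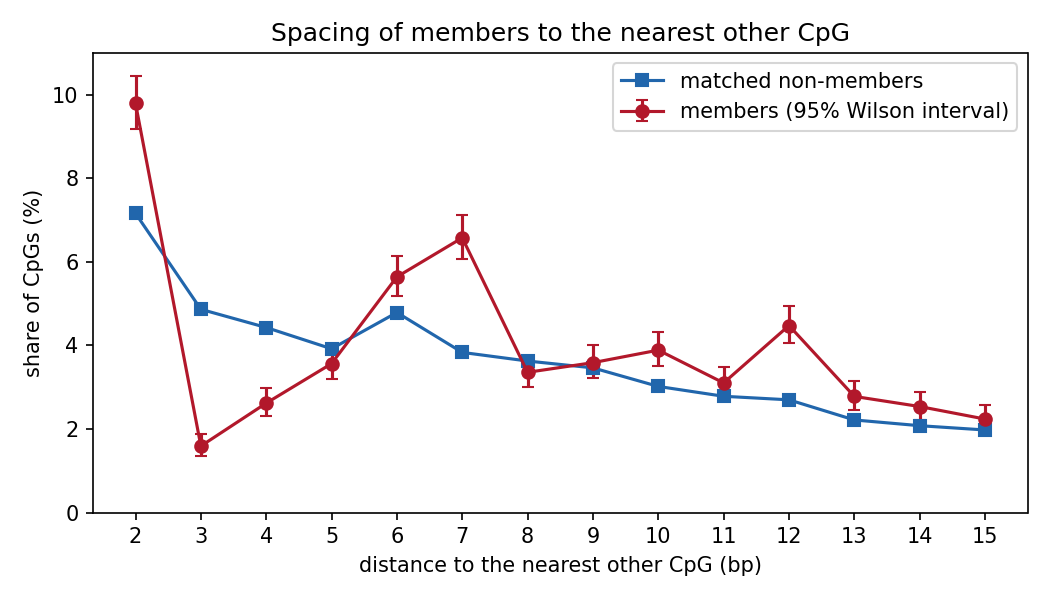
Share of CpGs (vertical axis, %) by the distance to the nearest other CpG (horizontal axis, bp), for members (circles, 95% Wilson intervals) and for matched non-members (squares). Members fall to 1.59% at 3 bp and stand above matched CpGs at 2, 7 and 12 bp.

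In position, members were close to other CpGs of the same methylation. Of all members, 89.0% lay inside an annotated gene (88.4% to 89.7%), against 87.2% of matched CpGs and 74.3% of all CpGs. ATAC-seq peaks, which mark open chromatin, held 8.72% of members and 7.82% of matched CpGs. These peaks were merged over DMSO-treated, GSK-treated and F1 gastrulae, so a peak need not be open in untreated embryos. Clusters of transcription starts mapped by CAGE-seq in control gastrulae lay within 500 bp of 1.20% and 1.09%. Members under 5% mCG were in genes in 69.3% of cases and in ATAC-seq peaks in 17.5%, against 66.8% and 16.4% of CpGs matched to them. Members lay near each other more often than matched CpGs did, since 31.3% (30.3% to 32.3%) had another member within 1000 bp against 20.4%.

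Genes with members numbered 4467 of 38689, and 2799 of these held a single member. Gene bodies with 10 or more numbered 36. The genes below are those with the most members, and the annotation gives them no name beyond their locus symbol. Coordinates are 1-based on assembly jaNemVect1.1. RNA levels are CPM (read counts scaled to the library total) in the 3 F0 libraries of DMSO-treated gastrulae and are not scaled by gene length.

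LOC5506916 (chromosome 12, 15115597 to 15147701, protein-coding) held the most members, with 38 of its 838 CpGs with enough calls. They spanned 18162 bp and were evenly spaced in places. Neighbouring members were 41 bp apart 6 times, 43 bp apart 5 times and 25 bp apart 3 times. Pooled over the 38, 5hmC was 12.7% in untreated cross gastrulae, 5.15% in F1 gastrulae, 2.37% in the F1 juvenile and 1.30% in sperm, while mCG was 82.3%, 54.7%, 24.2% and 9.60%. Both marks were thus highest in the untreated library and lowest in sperm. Of 22 members with enough calls in all libraries, 4 recurred in at least 1 other library and 0 in all 3. Its RNA stood at 133, 124 and 122 CPM.

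LOC5507602 (chromosome 1, 17400818 to 17435422, protein-coding) had the highest pooled 5hmC of these genes in the untreated library, which the rule used, and in the F1 juvenile. Its 18 members lay within 2755 bp, and 11 of the 17 gaps between neighbours were exactly 17 bp. Pooled 5hmC was 22.1% at baseline, 8.56% in F1 gastrulae, 9.13% in the F1 juvenile and 3.66% in sperm, with mCG of 72.3%, 38.0%, 38.0% and 17.9%. The other CpGs of the gene stood at 0.308%, 0.200% and 0.348% in the 3 libraries not used by the rule. Of the 18 members, 12 reached 10% in at least 1 of these libraries and 0 in all 3. Its RNA stood at 161, 171 and 85.1 CPM.

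LOC5506864 (chromosome 13, 13949406 to 13966288, protein-coding) packed 15 members into 338 CpGs. Pooled 5hmC at its members was 17.4%, 11.3%, 4.59% and 4.05% in untreated cross gastrulae, F1 gastrulae, F1 juvenile and sperm, and 8 of 12 members recurred in at least 1 library. It was the only gene of the 10 in which members had a pooled share above 10% in F1 gastrulae. Other genes also had 15 members, and it was taken as the densest of them. Its RNA ranged from 35.0 to 106 CPM.

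The other genes held 16 to 19 members. LOC116613955 (chromosome 5, 17024142 to 17060091, a long non-coding RNA gene) had 19, with pooled 5hmC of 12.1%, 4.12%, 1.58% and 0.465% in the same order of libraries, and 1 of 19 recurred. LOC116613690 (chromosome 1, 553924 to 623986) had 18 members at 12.6%, 2.61%, 1.92% and 0.861%. LOC116620378 (chromosome 1, 892884 to 943173) had 17 at 14.6%, 7.29%, 6.01% and 2.70%, of which 6 recurred.

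LOC116614896 (chromosome 11, 3699532 to 3720733) had 16 members at 15.5%, 3.54%, 1.79% and 0.354%. LOC5516004 (chromosome 7, 16747639 to 16781935) had 16 at 12.4%, 2.29%, 3.17% and 0.167%, and 0 of its 13 members with enough calls recurred. LOC116601884 (chromosome 9, 7007335 to 7065110) had 16 at 15.2%, 4.35%, 2.86% and 1.18%, and LOC5509225 (chromosome 4, 1567414 to 1693172) had 16 at 12.4%, 1.91%, 5.88% and 0.880%. In each of the 10 genes sperm had the lowest pooled 5hmC at the members, and sperm was also lowest in 5mC.

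The 10 members with the highest smallest share over the 4 libraries were each inside a gene, and each gene held a single one of them. They were chosen on these shares, so the values are a description. In LOC116617775 (chromosome 11, 710949 to 710950) 5hmC calls were 14 of 30 valid calls in untreated cross gastrulae (46.7%), 12 of 35 in F1 gastrulae (34.3%), 19 of 45 in the F1 juvenile (42.2%) and 15 of 44 in sperm (34.1%). Its mCG was 53.3%, 40%, 55.6% and 40.9%, so 5mC and 5hmC calls were of similar number in each library. In LOC5517464 (chromosome 1, 11432019 to 11432020) the 5hmC shares were 37.5%, 44.8%, 40% and 31.0%, and in sperm 5mC was at only 7.14%. In LOC5513959 (chromosome 5, 14108768 to 14108769) they were 38.5%, 35.9%, 30.4% and 37.2%.

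The CpG in LOC116620356 (chromosome 1, 886904 to 886905) had shares of 47.2%, 31.6%, 28.9% and 29.2%, lay in an ATAC-seq peak and was the only one of the 10 within 500 bp of a CAGE cluster. LOC5508978 (chromosome 5, 5610532 to 5610533) had 40.7%, 28.6%, 28.9% and 27.7%. LOC5505750 (chromosome 5, 7858923 to 7858924) stood apart from the others because it had almost no 5mC. Its 5hmC calls were 21 of 43 (48.8%), 12 of 44 (27.3%), 24 of 47 (51.1%) and 20 of 58 (34.5%), with mCG of 4.65% at baseline and 0% in the other 3 libraries.

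LOC5509683 (chromosome 7, 4592382 to 4592383) had 35.3%, 25.9%, 28.6% and 30.2%. The CpG in LOC5521987 (chromosome 10, 5761060 to 5761061) lay in an ATAC-seq peak with no other CpG within 100 bp, and had 25.0%, 40.4%, 37.3% and 30.6%. LOC5521749 (chromosome 2, 12995899 to 12995900) had 35.3%, 31.5%, 24.5% and 32.9%, and LOC5511886 (chromosome 7, 15276981 to 15276982) had 25.0%, 26.5%, 23.3% and 35.7%. No library was lowest throughout, and sperm was the highest of the 4 for LOC5511886. The host genes were transcribed in DMSO-treated gastrulae, from 3.57 to 4.14 CPM for LOC5521987 to 139 to 154 CPM for LOC5521749.

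**Figure D5:**
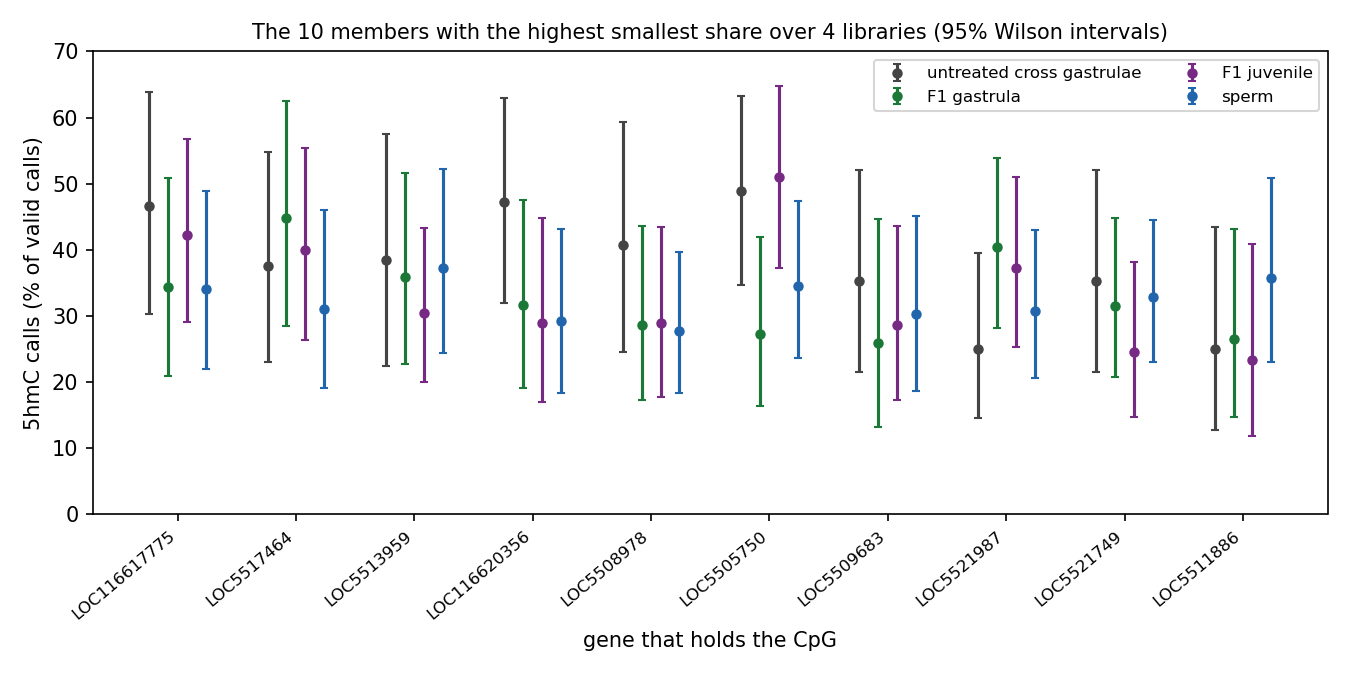
5hmC calls (vertical axis, % of valid calls) at the 10 members with the highest smallest share, labelled by the gene that holds them, in the 4 libraries (colours), with 95% Wilson intervals. Shares run from 23.3% to 51.1%, and the intervals of the 4 libraries overlap at every CpG.

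The 303 members found in all 4 libraries had median 5hmC shares of 18.5%, 17.9%, 17.3% and 16.7% in untreated cross gastrulae, F1 gastrulae, F1 juvenile and sperm. Their median mCG was 75.9%, 66.7%, 69.0% and 64.3%, so this set was about as methylated in sperm as in the F1 animals. The set had to reach 10% in sperm too. Recurrence in sperm went from 0% in the least modified class of members to 28.7% in the most modified. The medians of 5hmC and mCG thus follow in part from the choice and are a description. Of the 303, 281 lay in genes (92.7%, 89.3% to 95.2%, against 87.2% of matched CpGs), and 9.90% had 10 or more other CpGs within 100 bp, against 21.9%. The median share of failed calls was 28.9%, 28.6%, 28.8% and 29.7%.

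At the other end, 1135 of the 8017 members (14.2%) were under 1% in each of the other 3 libraries, against 82.6% of all CpGs and 54.6% of CpGs matched on mCG and on depth in all 4 libraries. The highest baseline shares among them were chosen for that difference. In LOC5513895 (chromosome 14, 5607996 to 5607997) 11 of 28 calls were 5hmC at baseline (39.3%), and 0 of 22, 0 of 22 and 0 of 42 in F1 gastrulae, F1 juvenile and sperm, which allow shares of up to 14.9%, 14.9% and 8.38% (upper Wilson bounds). In LOC5514167 a pair of members 2 bp apart (chromosome 5, 11916824 to 11916827) had 34.4% and 26.7% at baseline and 0% in the other libraries, with mCG of 66.7% and 67.4% in F1 gastrulae and 0% in sperm. LOC5502928 (chromosome 4, 6383744 to 6383745) had 8 of 29 calls (27.6%) at baseline and 0 of 31, 0 of 27 and 0 of 30 elsewhere. In LOC116604443 (chromosome 6, 5827134 to 5827135) the baseline was 27.6% too, and the CpG was almost fully methylated elsewhere, with mCG of 100%, 96.8% and 97.7% and 0 5hmC calls of 29, 31 and 43. At these depths a share of several percent would often give no call. Failed calls at these named CpGs also took 16.2% to 65.6% of valid and failed calls in the other 3 libraries.

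Differences between the 3 libraries were tested at each CpG with Fisher's exact test (two-sided, Benjamini-Hochberg over all nuclear CpGs tested). Such a test compares the libraries, not the conditions. Between sperm and F1 gastrulae 1 of 8200 members was lower in sperm and 0 were higher at FDR < 0.05, against 2.78e-05% and 0.0% of all CpGs. At an unadjusted p under 0.05 there were 378 members (4.61%, against 0.0388% of all CpGs). Between the F1 juvenile and F1 gastrulae 0 of 8046 members passed in either direction (0.0% of all CpGs), with 176 at an unadjusted p under 0.05 (2.19%, against 0.0337% of all CpGs). Between sperm and F1 juvenile 0 of 8236 passed, against 1.38e-05% of all CpGs higher and 0.0% lower, with 397 at an unadjusted p under 0.05 (4.82%, against 0.0646% of all CpGs). Most of all CpGs had no 5hmC call in either library compared and could not reach such a p. The unadjusted shares over all CpGs are therefore no yardstick for members. Many members also had no 5hmC call in a given library (35.7% to 42.6%), so 0.05 is no yardstick for the member shares either. With at least 40 valid calls in both libraries, the member shares were 5.87%, 2.55% and 5.33% in the same order of comparisons.

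The member that passed lay where LOC116601169 and LOC5517467 overlap (chromosome 1, 11351528 to 11351529) and is named because it was the only one. 5hmC calls were 11 of 58 in untreated cross gastrulae (19.0%), 22 of 58 in F1 gastrulae (37.9%), 0 of 50 in the F1 juvenile and 1 of 84 in sperm (1.19%), with an adjusted p of 0.0158 by Fisher's exact test for sperm against F1 gastrulae. Its mCG was 63.8%, 56.9%, 0% and 92.9%. The F1 juvenile thus had neither mark at this CpG, and sperm had 5mC almost alone.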

How the data were processed

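Per the labels and the study's methods, genomic DNA was sheared and sequenced on PromethION flow cells, the authors called bases and CpG modifications with Dorado (a model that calls 5mC and 5hmC) while mapping to jaNemVect1.1, and extracted calls with Modkit, both strands joined. For each CpG, the deposited Nanopore tables give counts of reads in each class (valid, 5mC, 5hmC, failed, other base). The deposited RNA-seq and ATAC-seq values are counts per gene and per merged peak, of which only gene CPM and peak positions were used. The deposited CAGE-seq values are a normalized signal per cluster, of which only positions were used. Per-sample columns left unmapped numbered 0.

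Members and lists were chosen with earlier results of these data known. CpGs needed at least 20 valid calls in each library read, except in the pooled member values of the named genes, which took every member of the gene. Intervals are Wilson intervals at a 95% confidence level; they treat CpGs and reads as independent and cover counting error only. Matched shares weight non-members by the members' strata of baseline mCG (5-point steps) and of valid calls in both libraries (steps of 10, all above 100 together), and have no test. Named CpGs were the 10 members with the highest smallest share over 4 libraries, and the 5 with the highest baseline share under 1% in the other 3; named genes were the 10 with the most members and the hosts of the recurrent CpGs. Distances to gene ends were within 500 bp. The test was Fisher's exact test with FDR < 0.05, computed with scipy 1.17.1, pandas 2.3.3 and numpy 2.4.6 under Python 3.11.15. On simulated counts for sperm against F1 gastrula over 6467622 CpGs it recovered 67.5% of 200 CpGs set to 40%, with 0 false calls. Members had pooled 5hmC of only 3.09% in sperm and 4.33% in F1 gastrulae. Recovery of differences of that size was not measured. Alternatives changed the depth minimum, the threshold, the denominator, the read filters, the matching and the FDR. The sequence around the CpGs, repeats and exons were not analysed here.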

Additional observations from a re-analysis of the deposited data

How the results depend on the processing

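Members exceeded matched CpGs under every alternative run, by 4.89 to 232 times. Values are in the order F1 gastrula, F1 juvenile, sperm. With at least 10 valid calls, 11.1%, 9.64% and 7.20% of members recurred. With at least 40, the F1 gastrula share was 11.9%, matched shares were 0.140%, 0.313% and 0.255%, and pooled 5hmC was 3.95% in F1 gastrulae and 4.05% in the F1 juvenile. With 20% as the threshold for members and read-out, members recurred at 13.5%, 11.7% and 8.22%, matched CpGs at 0.0781%, 0.0838% and 0.0353%, and pooled 5hmC was 9.26%, 8.74% and 6.16%. With 5%, members recurred at 13.9% in F1 gastrulae and 12.04% in the F1 juvenile, and matched CpGs at 2.64%, 2.46% and 1.91%. With few failed and other-base reads, the member shares were 11.05%, 11.1% and 5.90% and the matched shares 0.282%, 0.398% and 0.201%. With 5hmC over valid and failed calls, sperm members stood at 7.95% and matched CpGs at 0.287%, 0.295% and 0.170%. With at least 5 5hmC calls at baseline (chosen after seeing the data), members recurred at 24.8%, 23.5% and 15.96%. Matched shares were 1.33%, 1.18% and 0.802% when matched also on failed calls, and 1.21%, 1.06% and 0.950% when matched also on modification in the read-out library, both chosen after seeing the data. The cause of these shifts was not tested. At FDR < 0.01, 0 members differed between sperm and F1 gastrulae.

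Matched shares were 0.744%, 0.761% and 0.493% when matched on 5mC and 5hmC together, and 0.725%, 0.771% and 0.447% when matched also on the distance to the nearest CpG. Matching on the bases around the CpG was not run, and the planned list of methylation enzymes was not analysed here. No paired analysis was possible because each group was 1 library. With a median of 29 valid calls, a member at 10% rests on few reads, and 1 library a group leaves the spread between animals unmeasured.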

Other observations

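The scarcity of members with a neighbour at 3 bp had a counterpart in the 5hmC of all CpGs methylated at 60% or more at baseline, while the excess at 2, 7 and 12 bp did not have one in every library. In F1 gastrulae, pooled 5hmC was 0.276% of valid calls for CpGs with a neighbour at 3 bp, 0.543% at 2 bp, 0.680% at 7 bp, 0.885% at 12 bp and 0.799% at 20 bp or more. In sperm the same classes had 0.440%, 0.489%, 0.623%, 0.785% and 0.841%. In the untreated library, which chose the members, they had 0.524%, 0.961%, 1.20%, 1.25% and 1.05%.

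Members were spread over all 15 chromosomes, with 7.50 to 9.44 per 1000 CpGs methylated at 60% or more.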
